A study of Mus musculus with 140 samples.

Results

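Cirbp and Rbm3 were followed as 2 of the 10489 genes listed for every genotype of a liver time series. They were taken by their gene symbols, with no use of measured values. The 46 Per1,2-/- samples came from mice that lack both Period genes, the 46 Bmal1-/- samples from mice that carry the Arntl tm1Bra allele, and the 48 WT samples from C57BL/6 mice without either deletion. All were 3-month-old males with food at all times, moved from a light-dark cycle to constant dark. Collection ran in steps of 4 hours over both days in the dark, CT0 to CT44, where CT0 marks subjective dawn of the first. The samples of a time point carry letters, A to D, and there are 4 at each of the 12 time points, except that Per1,2-/- had 3 at CT8 and CT20 and Bmal1-/- had 3 at CT16 and CT20. Both deletions are present in the whole animal and not only in the liver, so that brain clock, activity and body temperature can differ along with the liver clock. A field of the Bmal1-/- labels also names the light-dark cycle for the experiment itself, whereas the titles and the study's methods give constant dark. The number of mice behind each time point of the RNA-seq is not given in the sources used here. The p-values here thus reflect how far samples lay from each other or from a fitted mean or curve. That spread may in part be technical.

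Cirbp encodes cold-inducible RNA-binding protein, and Rbm3 encodes a close relative. Each protein has an RNA recognition motif followed by a glycine-rich tail, binds many mRNAs, and is known from mammalian cells to be made in larger amounts after mild cooling. Body temperature of mice is lower in the subjective day, when they rest, and higher in the subjective night. Through this cycle both genes are known as systemic markers, that is, genes that can cycle in a tissue with body temperature and need not be driven by the tissue's own clock. CIRBP has been reported in cultured fibroblasts to bind the Clock mRNA and to support the amplitude of clock gene rhythms, and both proteins have been linked to the choice of polyadenylation sites. Heat shock genes, which the transcription factor HSF1 activates, mark the warm phase of the same cycle.

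In GRCm38, the build of the files, Cirbp lies on the forward strand of chromosome 10 from 80165990 to 80172786, and Rbm3 on the reverse strand of chromosome X from 8138975 to 8145880. The 3′ end of Cirbp lies just before Fam174c, which starts at 80172944 on the same strand. The authors counted reads in the union mode of HTSeq, over genes extended by 1000 bases at the 5′ edge and 100 at the 3′ edge. Reads from the last stretch of Cirbp could thus overlap the extended Fam174c as well. Union mode counts a read that overlaps both genes for neither, so Cirbp counts are uncertain to that extent. The 5′ end of Rbm3 overlaps the antisense transcript Rbm3os, from 8145427 to 8147964, and strand use in the counting is not given in the sources used here. A processed pseudogene, Rbm3-ps, lies on chromosome 1 from 150265535 to 150265999, so part of the Rbm3 reads may have been placed there or left out, and Rbm3 counts are uncertain to that extent. The promoter table from RefSeq (GRCm38.p6) holds 2 start sites of Cirbp. The upstream one, chr10:80167589-80167888 on the forward strand, is shown because a stretch of it, TCCCCGCC, is the motif described in mouse Cirbp as the mild-cold response element. Capitals mark that motif and both CCAAT boxes.
Cirbp promoter: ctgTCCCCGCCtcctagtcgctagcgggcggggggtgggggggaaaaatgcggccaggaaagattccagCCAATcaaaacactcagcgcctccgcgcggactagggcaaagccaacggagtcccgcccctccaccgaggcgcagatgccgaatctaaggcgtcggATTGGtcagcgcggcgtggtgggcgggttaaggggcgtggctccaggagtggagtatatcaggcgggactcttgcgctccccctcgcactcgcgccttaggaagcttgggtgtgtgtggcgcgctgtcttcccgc

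The response element begins 247 bases before the start site on the forward strand. Those letters occur on either strand in 5.38% of the 32851 promoters of this length in the table. CCAAT boxes, at 181 bases before the start on the forward strand and 85 on the reverse, occur in 37.4% of them. The GC box GGGCGG, present 3 times in this window and 4 times in that of the other start site, occurs in 35.7%. Neither window held the E-box CACGTG (7.15% of promoters), the D-box TTATGNAA (3.38%), the RORE GTAGGTCA (0.621%) or the heat shock element GAANNTTC (7.86%), each searched on both strands. The other start site has no copy of the response element. A match is a string of letters and not a site shown to be used, and tags from transcript 3′ ends do not tell the start sites apart.

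Libraries were made by bulk MARS-seq, in which RNA is read near transcript 3′ ends and molecular identifiers collapse PCR copies, so 1 count stands for 1 captured molecule. Totals were 1442278 to 5643470 counts in Per1,2-/- libraries, 1924755 to 5325256 in Bmal1-/- libraries and 1678097 to 4364594 in WT libraries. Cirbp had 17 to 210 counts per library in Per1,2-/- (median 50), 33 to 157 in Bmal1-/- (median 87.5) and 22 to 192 in WT (median 58.5). Rbm3 was scarce, with 3 to 55 counts in Per1,2-/- (median 10), 5 to 29 in Bmal1-/- (median 11) and 4 to 24 in WT (median 10). Within time points, Rbm3 counts varied by 3.17 times the variance of counting alone in Per1,2-/-, 1.40 times in Bmal1-/- and 1.13 times in WT, and Cirbp counts by 4.08, 5.48 and 3.04 times. The 5 libraries that stood apart had a lower correlation with the median profile of their own genotype (0.948 to 0.963) than any WT library (0.966 and above), namely C at CT4, C at CT8 and A at CT32 of Per1,2-/-, and D at CT40 and D at CT44 of Bmal1-/-. Results that rest on them are given with and without them. The bound was chosen after the correlations were seen. All 6 hepatocyte markers were counted in every genotype, and their summed level ran from 61794 to 115122 CPM in Per1,2-/-, from 32991 to 60803 CPM in Bmal1-/- and from 65181 to 105179 CPM in WT. The 4 macrophage markers summed to 155.0 to 697.7 CPM, 38.3 to 151.2 CPM and 150.2 to 566.9 CPM in the same order. The 4 endothelial markers summed to 36.3 to 75.0 CPM, 49.7 to 92.6 CPM and 42.1 to 91.3 CPM, and the stellate, cholangiocyte and lymphocyte lists to at most 251.7 CPM in any library. Lrat in WT, Cd3e in Bmal1-/- and Cd79a in all 3 genotypes were not listed. The deleted genes themselves were still counted, with a median of 9.85 CPM for Per1 and 19.5 CPM for Per2 in Per1,2-/-, against 17.0 and 11.8 CPM in WT, and of 8.34 CPM for Arntl in Bmal1-/-, against 11.0 CPM in WT. A 3′ tag outside a deleted part does not check a label.

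Cirbp had a clear 24-hour rhythm in WT livers, high through the subjective day and low in the subjective night. In normalized counts, which divide each library's counts by its size factor, the WT libraries at CT4 held 81.8, 149.9, 81.7 and 72.4, and those at CT16 held 30.0, 34.8, 34.7 and 40.5. On the next day the libraries at CT32 held 105, 101, 143.3 and 97.1, and those at CT40 held 28.8, 39.9, 29.8 and 22.8. On each day the highest and lowest time points did not overlap. Means fell into a day plateau from CT4 to CT12 (96.5 ± 35.9, 79.7 ± 5.72 and 66.6 ± 12.6, SD, n = 4 each) and from CT28 to CT36 (76.8 ± 12.2, 111.6 ± 21.3 and 87.3 ± 12.0, SD, n = 4 each), with lower means between. Harmonic regression, a fitted mean, cosine and sine, put the peak at 7.18 ± 0.41 hours (SE, n = 48) and the peak-to-trough fold at 3.23 (95% interval 2.38 to 4.64). The cosine accounted for 65.6% of the variance among the 48 libraries. In JTK_CYCLE, a rank test against cosines of a set period, q was 5.02e-08, where q is the Benjamini-Hochberg adjusted value over 9258 genes and calls were made under 0.2. That test called 48.6% of genes at 24 hours in WT. Among the 4497 called genes Cirbp ranked 139th by amplitude relative to its mean, and the median fold of those genes was 1.39. The first day alone gave 3.10-fold with a peak at 6.54 ± 0.62 hours, and the second day alone 3.46-fold with a peak at 7.71 ± 0.52 hours (SE, n = 24 each). JTK_CYCLE called Cirbp at 28 hours too (q = 1.05e-07), as well as at 20 hours (q = 0.00791) and 32 hours (q = 0.00159). The cosine of 28 hours accounted for 55.5% of the variance and that of 20 hours for 35.2%, less than that of 24 hours. Change over the 12 time points passed edgeR's quasi-likelihood test as well (adjusted p = 9.21e-11, with 33.3% of genes called). In bulk tissue a lower level can mean fewer cells that hold the mRNA or less of it in each cell.

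**Figure D1:**
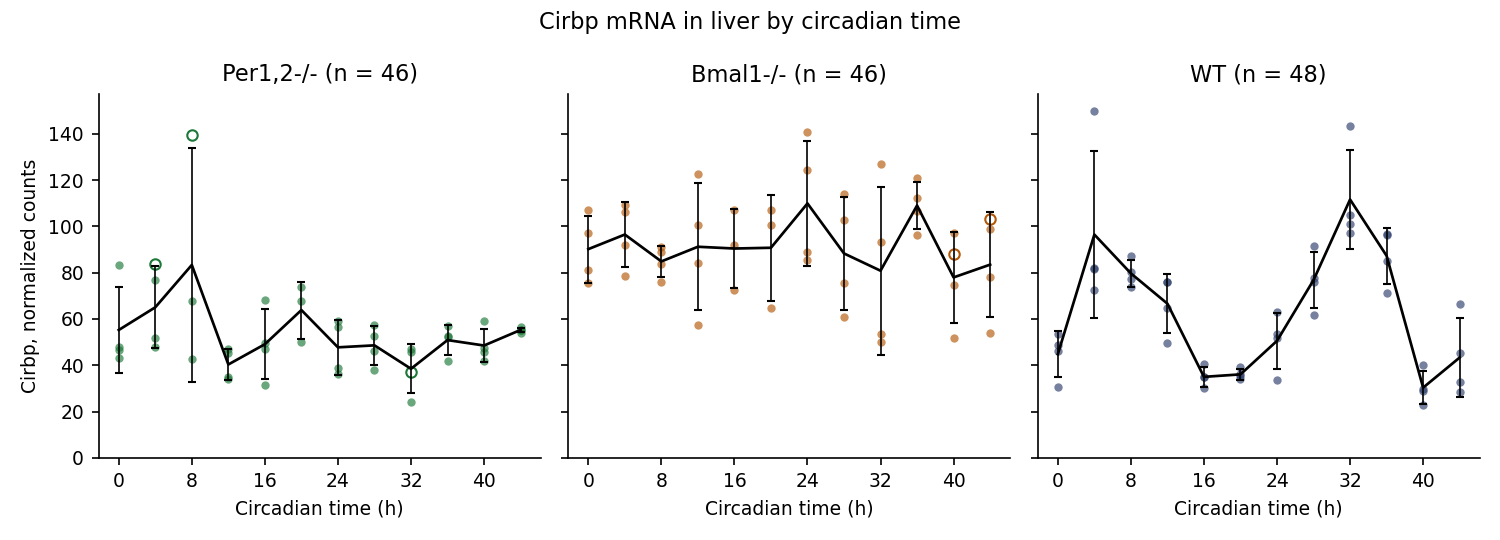
Cirbp normalized counts (vertical axis) by circadian time in hours (horizontal axis) in Per1,2-/-, Bmal1-/- and WT livers. Counts were normalized within each genotype, so heights do not compare levels between genotypes. Points are libraries, open points are the 5 libraries whose whole profile stood apart from their genotype's median profile, and lines join time point means ± SD; Per1,2-/- means run between 38.5 and 83.3, Bmal1-/- means between 78.0 and 109.9, and WT means between 30.3 and 111.6.

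In Per1,2-/- livers no 24-hour rhythm of Cirbp was detected, and a weak change between time points rested on few libraries. Means lay between 38.5 ± 10.6 at CT32 and 83.3 ± 50.4 at CT8 (SD, n = 4 and 3). The libraries at CT8, near the WT peak, held 67.8, 42.5 and 139.7, and the last of these was 1 of the libraries that stood apart. At the same hour of the next day, CT32, the 4 libraries held 37.2, 45.7, 47.0 and 23.9. The high value at CT8 thus did not return a day later, and the next highest of the 46 libraries held 83.6. At CT16, near the WT trough, the libraries held 47.0, 68.3, 49.7 and 31.3. JTK_CYCLE gave q = 1 at 24 hours (unadjusted p = 0.237), where 0.0864% of genes were called. The fitted 24-hour fold was 1.16, and its 95% interval reached up to 1.55, below the lower bound of 2.38 in WT. At 16 hours, the period at which 4.73% of genes were called in Per1,2-/-, Cirbp had q = 0.837 and a fold of 1.34. The lowest unadjusted p was 0.0197, at 20 hours (q = 0.723). Change over the 12 time points passed edgeR's test (adjusted p = 0.0409, with 15.2% of genes called), but adjusted p rose to 0.192 without the library C of CT8, to 0.386 without the 3 libraries that stood apart, and to between 0.0508 and 0.278 without each letter in turn.

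In Bmal1-/- livers no 24-hour rhythm and no change of Cirbp over time were detected, though libraries ran from 50.0 at CT32 to 140.7 at CT24. Means lay between 78.0 ± 19.7 at CT40 and 109.9 ± 27.0 at CT24 (SD, n = 4 each), a ratio of 1.41, against 3.68 between the highest and lowest means in WT. At CT16, near the WT trough, the 3 Bmal1-/- libraries held 91.9, 107 and 72.6, and at CT40 the 4 libraries held 51.8, 97.2, 74.8 and 88.0. At CT4 they held 91.8, 78.6, 106.4 and 109.1, so day and night values overlapped. JTK_CYCLE gave q = 1 at 24 hours, where it called 0.0116% of genes, and the fitted fold was 1.05 with a 95% interval up to 1.28. At 12 hours, where 0.14% of genes were called, Cirbp had an unadjusted p of 0.0656 and q = 0.439. The fitted 12-hour fold was 1.23 (95% interval 1.02 to 1.49). No change over the 12 time points was detected by edgeR (adjusted p = 0.923, with 0.0699% of genes called).

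The 24-hour terms of Cirbp differed between each knockout and WT. Both tests used edgeR's quasi-likelihood F-test, and each genotype had its own mean, 24-hour cosine and sine, and 16-hour cosine and sine. The adjusted p was 6.73e-07 for Per1,2-/- against WT, where 27.1% of genes passed, and 3.43e-08 for Bmal1-/- against WT, where 21.7% passed. On the log2 scale the peak-to-trough difference was 0.24 ± 0.17 in Per1,2-/-, 0.08 ± 0.15 in Bmal1-/- and 1.57 ± 0.15 in WT (SE, n = 46, 46 and 48). The difference from WT was -1.33 for Per1,2-/- (95% interval -1.78 to -0.89) and -1.49 for Bmal1-/- (95% interval -1.90 to -1.07). Between the knockouts no difference in the 24-hour terms was detected (adjusted p = 0.933, with 0.0114% of genes passing), and the interval of their difference in log2 peak-to-trough, Per1,2-/- minus Bmal1-/-, ran from -0.30 to 0.60.

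The knockouts lost the Cirbp rhythm at different levels. On CPM scaled by TMM over all 140 libraries, Cirbp averaged 14.6 ± 5.04 CPM in Per1,2-/-, 26.2 ± 6.17 CPM in Bmal1-/- and 20.9 ± 9.71 CPM in WT (SD, n = 46, 46 and 48). In WT the means by time of day ran from 10.8 CPM at CT16 and CT40 to 31.6 CPM at CT8 and CT32. The Bmal1-/- means by time of day, 23.8 to 28.9 CPM, lay in the upper part of that range, and the Per1,2-/- means, 12.5 to 16.2 CPM, in its lower part. By edgeR the log2 fold change of the level was -0.38 ± 0.08 in Per1,2-/- against WT (adjusted p = 2.04e-05), 0.43 ± 0.07 in Bmal1-/- against WT (adjusted p = 1.34e-07), and -0.80 ± 0.08 in Per1,2-/- against Bmal1-/- (adjusted p = 3.21e-15, SE throughout). These tests called 68.9%, 76.1% and 74% of genes, so a call on level was the common case. The libraries of each genotype were deposited as a table of their own, and genotype and any difference in library preparation cannot be told apart for levels. The hepatocyte markers were also lower in Bmal1-/- than in WT (medians of the sum 52514 and 81463 CPM), and their part in the Cirbp difference was not tested.

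By time of day, the difference of Cirbp from WT depended on the hour. Per1,2-/- livers fell below WT at CT4 and CT28 (log2 fold change -0.85 ± 0.19, adjusted p = 0.00015), at CT8 and CT32 (-0.91 ± 0.19, adjusted p = 0.000109) and at CT12 and CT36 (-1.01 ± 0.19, adjusted p = 1.49e-05, SE). The value of CT8 and CT32 rested on the second day, with -0.07 on the first day alone (adjusted p = 0.884) and -1.78 on the second (adjusted p = 1.48e-08), and it was -1.30 without the libraries that stood apart. At CT16 and CT40 the value was 0.34 ± 0.21 and at CT20 and CT44 0.32 ± 0.21, and neither passed (adjusted p = 0.186 and 0.233). Bmal1-/- livers rose above WT at CT16 and CT40 (1.16 ± 0.18, adjusted p = 1.31e-07), at CT20 and CT44 (0.91 ± 0.18, adjusted p = 1.65e-05) and at CT0 and CT24 (0.85 ± 0.17, adjusted p = 1.86e-05). They fell below WT at CT8 and CT32 (-0.42 ± 0.16, adjusted p = 0.0282), a call lost on the first day alone. Values were adjusted over all genes and the 6 times of day together, and 37.3% of gene and time pairs passed in Per1,2-/- against WT and 48.5% in Bmal1-/- against WT. Cirbp was thus below WT by day in Per1,2-/- livers and above WT by night in Bmal1-/- livers, as far as levels can be set across the tables.

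**Figure D2:**
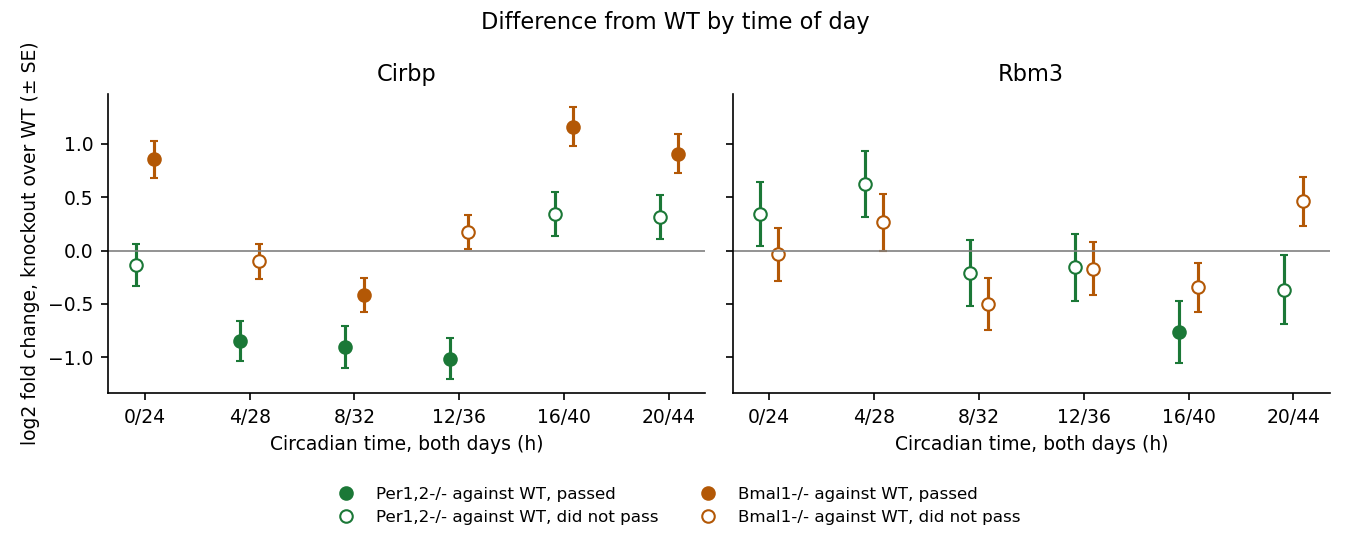
Log2 fold change over WT (vertical axis, ± SE from edgeR) of Cirbp and Rbm3 by circadian time, both days joined (horizontal axis, hours), in Per1,2-/- and Bmal1-/- livers. Filled points passed at adjusted p under 0.05; for Cirbp the Per1,2-/- points lie lowest at CT12 and CT36 (-1.01) and the Bmal1-/- points highest at CT16 and CT40 (1.16), and for Rbm3 only the Per1,2-/- point at CT16 and CT40 (-0.77) passed.

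Rbm3 had at most a shallow 24-hour rhythm in WT livers, with its fitted peak in the subjective night. The WT libraries at CT16 held 21.2, 8.90, 14.9 and 15.6 normalized counts, the highest mean (15.1 ± 5.03, SD, n = 4), and those at CT4 held 8.05, 4.72, 9.68 and 7.72, the lowest (7.54 ± 2.07, SD, n = 4). These time points overlapped, and the mean count of 10.8 per library carried a counting error of about 30.5%. On the next day CT40 held 9.12, 14.5, 12.1 and 14.0, and CT28 held 9.62, 5.52, 5.56 and 9.70. The next highest mean of each day fell in the subjective day, 11.3 ± 2.44 at CT8 and 11.5 ± 5.37 at CT32 (SD, n = 4 each). Means at CT12 (8.64) and CT36 (10.0) were lower again, so the course was not a single smooth wave. The fitted peak was at 15.5 ± 1.45 hours (SE, n = 48) with a fold of 1.44 (95% interval 1.10 to 1.92), and the cosine accounted for 13.4% of the variance. JTK_CYCLE called it at q = 0.0987 (unadjusted p = 0.0405). The call was lost without the letters A, B and C in turn (q = 0.255, 0.327 and 0.349) and with a threshold of 0.05, and edgeR detected no change over the 12 time points (adjusted p = 0.273). Each day alone gave a similar peak, at 16.1 ± 1.98 hours with 1.48-fold on the first and at 14.7 ± 2.19 hours with 1.42-fold on the second (SE, n = 24 each), but neither passed.

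In Per1,2-/- livers Rbm3 was highest on the first day. The libraries at CT0 held 8.13, 9.97, 21.0 and 22.2, those at CT4 held 7.75, 11.6, 38.0 and 10.5, and those at CT8 held 10.4, 10.0 and 27.9. The values of 38.0 and 27.9 came from the libraries C of CT4 and CT8 that stood apart, and the others at those times did not exceed 11.6. At CT32 the libraries held 5.17, 3.92, 9.80 and 9.31. JTK_CYCLE detected no rhythm at 24 hours (q = 1, unadjusted p = 0.248) or at 16 hours (q = 1), and edgeR no change over time (adjusted p = 0.231). The fitted 24-hour fold of 1.58 had a 95% interval from 1.00 to 2.62 and a peak at 2.73 ± 1.99 hours (SE, n = 46). Without the 3 libraries that stood apart the fold was 1.39 and the peak lay at 0.28 ± 2.08 hours (SE, n = 43). A linear trend of the log2 values fell by 0.37 ± 0.16 per day (SE, q = 0.087 at a threshold of 0.05), where 25.4% of genes passed in Per1,2-/-, and by 0.21 ± 0.15 per day without the 3 libraries that stood apart (q = 0.307).

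In Bmal1-/- livers Rbm3 was highest late on the second day. The 4 libraries at CT44 held 16.7, 14.4, 23.5 and 27.1, a mean of 20.5 ± 5.90 (SD, n = 4), and 3 of them lay above every library from CT0 to CT24. A day earlier, at CT20, the 3 libraries held 9.99, 12.5 and 13.7, and at CT8 the 4 libraries held 5.10, 6.06, 16.3 and 5.18, the lowest mean. JTK_CYCLE did not call it at 24 hours (unadjusted p = 0.0549, q = 1) or at 12 hours (q = 1), and edgeR detected no change over time (adjusted p = 0.615). Harmonic regression gave a fold of 1.63 (95% interval 1.19 to 2.30) with a peak at 19.9 ± 1.23 hours (SE, n = 46), with an unadjusted p of 0.0144 that did not hold over genes (q = 0.866). Peaks of the days alone were 20.0 ± 2.40 and 20.0 ± 1.47 hours, with folds of 1.34 on the first and 1.84 on the second (SE, n = 22 and 24). Without the libraries D of CT40 and CT44, which stood apart, the fold was 1.44 and the peak lay at 20.4 ± 1.54 hours (SE, n = 44, JTK_CYCLE q = 1). The linear trend was 0.31 ± 0.13 per day on the log2 scale (SE, unadjusted p = 0.0202, q = 0.53, with 0% of genes passing) and 0.22 ± 0.13 without those libraries (q = 0.822).

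**Figure D3:**
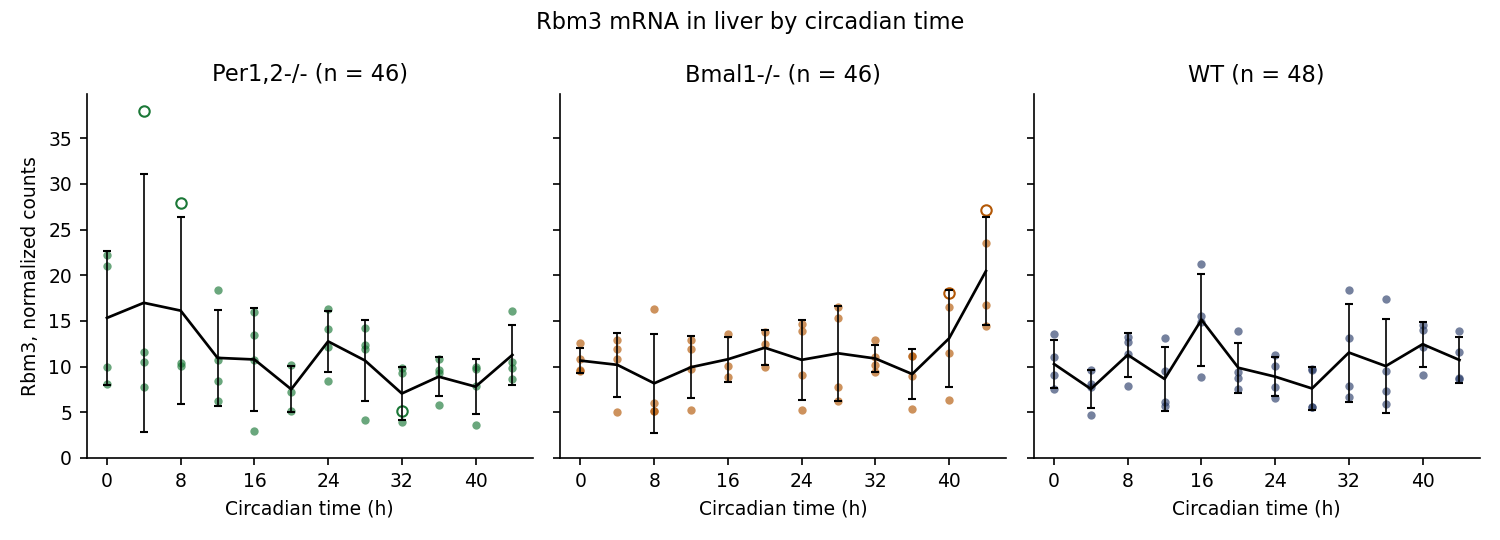
Rbm3 normalized counts (vertical axis) by circadian time in hours (horizontal axis) in Per1,2-/-, Bmal1-/- and WT livers. Counts were normalized within each genotype, so heights do not compare levels between genotypes. Points are libraries, open points are the 5 libraries whose whole profile stood apart from their genotype's median profile, and lines join time point means ± SD; the highest means are 17.0 at CT4 in Per1,2-/-, 20.5 at CT44 in Bmal1-/- and 15.1 at CT16 in WT.

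The 24-hour terms of Rbm3 differed between Per1,2-/- and WT in edgeR (adjusted p = 0.0304), where 27.1% of all genes passed. They did not pass without the libraries that stood apart (adjusted p = 0.0664) or without the letters A, B and C in turn (adjusted p = 0.062, 0.163 and 0.141). No difference in the size of the rhythm was detected, with a difference in log2 peak-to-trough, Per1,2-/- minus WT, of 0.07 (95% interval -0.55 to 0.68). The fitted peak of Per1,2-/- lay at 2.73 hours, whereas that of WT lay at 15.5 hours. No difference was detected for Bmal1-/- against WT (adjusted p = 0.192, difference of log2 peak-to-trough 0.16, 95% interval -0.37 to 0.70) or for Per1,2-/- against Bmal1-/- (adjusted p = 0.42, difference -0.10, 95% interval -0.75 to 0.56). By time of day, Rbm3 fell below WT in Per1,2-/- at CT16 and CT40 (log2 fold change -0.77 ± 0.29, SE, adjusted p = 0.0298), where 33.3% of all genes passed. That call was lost on each day alone (adjusted p = 0.241 and 0.0566). The other 11 values of Rbm3 did not pass in either knockout. Of all gene and time pairs, 37.3% passed in Per1,2-/- against WT and 48.5% in Bmal1-/- against WT.

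No difference in the level of Rbm3 between genotypes was detected over all libraries. It averaged 3.12 ± 1.75 CPM in Per1,2-/-, 3.29 ± 1.31 CPM in Bmal1-/- and 3.41 ± 1.20 CPM in WT (SD, n = 46, 46 and 48), with ranges that overlapped widely. The log2 fold change was -0.10 in Per1,2-/- against WT (95% interval -0.34 to 0.15, adjusted p = 0.511), -0.08 in Bmal1-/- against WT (95% interval -0.28 to 0.12, adjusted p = 0.498) and -0.0039 in Per1,2-/- against Bmal1-/- (95% interval -0.28 to 0.27, adjusted p = 0.981). Those tests called 68.9%, 76.1% and 74% of all genes in the same order. The comparison of Per1,2-/- with WT depended on its high libraries. Without the 3 that stood apart the log2 fold change was -0.24 (adjusted p = 0.0477), and without the letter C it was -0.33 (adjusted p = 0.0207).

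Although both mRNAs are cold-inducible, their fitted peaks lay apart in WT livers, with the limit that the Rbm3 rhythm was itself a weak call. The fitted peak of Rbm3 came 8.31 ± 1.46 hours (SE, n = 48, 95% interval 5.45 to 11.2) after that of Cirbp. Across the 48 WT libraries their log2 values had a Pearson's r of -0.35 (permutation p = 0.0157, adjusted p = 0.0472 over 18 relations) and a Spearman's rho of -0.29 (permutation p = 0.0429, adjusted p = 0.11). Without the 2 libraries farthest from the median of Cirbp, r was -0.25 (permutation p = 0.0914), so the size of the relation was in part kept but it no longer passed. Over all libraries the permutations crossed time points, so those p-values also reflect the time courses of both genes. Among WT libraries of the same time point r was -0.22 (permutation p = 0.144). In Per1,2-/- r was 0.15 over all libraries (permutation p = 0.33) and in Bmal1-/- it was -0.04 (permutation p = 0.79). In Per1,2-/- the fitted peaks, 1.99 hours for Cirbp and 2.73 hours for Rbm3, lay 0.73 ± 3.52 hours apart (SE, n = 46), though neither gene was called there, and both had their lowest means at CT32. Over the 12 time point means of log2 values r was 0.51 in Per1,2-/-, and 0.13 without the 3 libraries that stood apart, against -0.39 in Bmal1-/- and -0.53 in WT, which is given as a description.

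Heat shock genes ran opposite to Cirbp in WT livers. Of the 21 genes on the list, 19 passed the filter with Per1,2-/- and WT, and 18 of these were called at 24 hours in WT (against 48.6% of all genes), all with a peak between 16.1 and 22.4 hours. Their median fold was 2.11 over the 19 tested genes, against 1.25 over all genes tested. Hspa8, the constitutive HSP70 chaperone, ran between mean normalized counts of 1147 at CT28 and 3659.9 at CT16, with a fold of 3.32 and a peak at 16.1 ± 0.35 hours (SE, q = 1.42e-11). Hsph1, a nucleotide exchange factor of HSP70, had a fold of 7.79 and a peak at 17.9 ± 0.37 hours (q = 3.76e-11). Hspb1, a small heat shock protein, had a fold of 8.999 and a peak at 21.4 ± 0.45 hours (q = 5.27e-11). Fkbp4, an immunophilin that works with HSP90, had a fold of 1.88 and a peak at 19.4 ± 0.38 hours (q = 8.3e-10). The exception was Dnajb4, with a mean of 5.93 normalized counts (q = 1). Hsf1 itself, the only heat shock factor that passed the filter, had a fold of 1.03 (q = 1). The Rbm3 peak at 15.5 hours lay within its standard error of the earliest of the heat shock peaks.

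**Figure D4:**
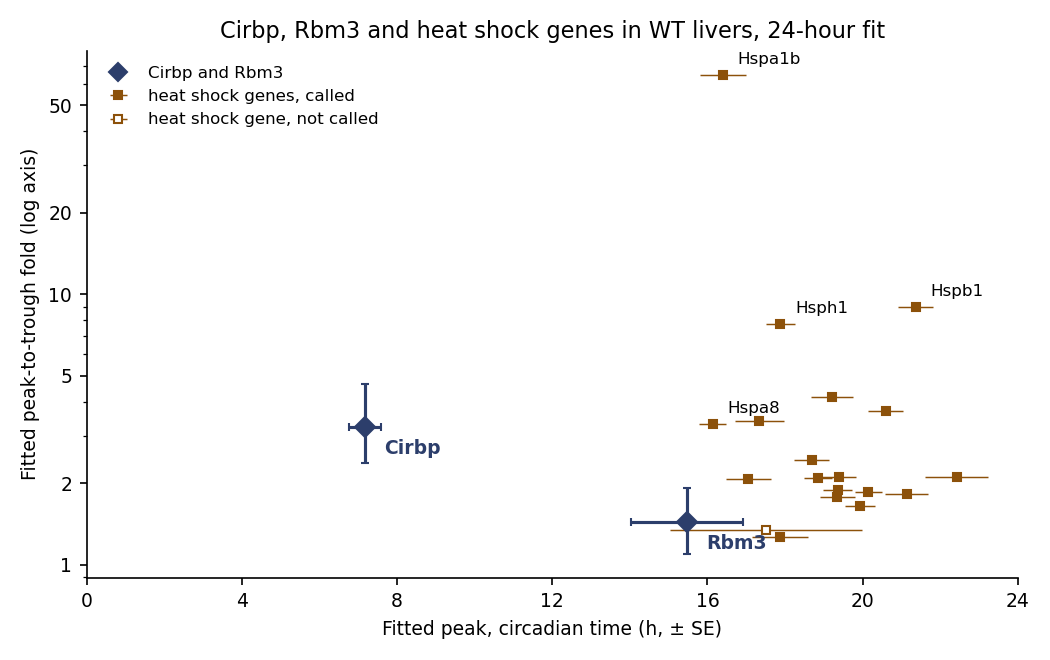
Fitted 24-hour peak-to-trough fold (vertical log axis) against fitted peak in circadian hours (horizontal axis, ± SE) of Cirbp, Rbm3 and the 19 tested heat shock genes in 48 WT libraries. Vertical bars of the members are 95% intervals; Cirbp peaks at 7.18 hours, Rbm3 at 15.5 hours and the 18 called heat shock genes between 16.1 and 22.4 hours.

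Like Cirbp, the heat shock genes had no called 24-hour rhythm in either knockout, 0 of 19 in Per1,2-/- and 0 of 18 in Bmal1-/- by JTK_CYCLE, where it called 0.0864% and 0.0116% of all genes, so that 0 calls was the common case for any gene. At an unadjusted p under 0.05 the counts were 1 and 0, and harmonic regression called 0 in each. The 24-hour terms differed from WT for 18 of 19 in Per1,2-/- (against 27.1% of all genes) and for 17 of 18 in Bmal1-/- (against 21.7%) by edgeR. Change over the 12 time points passed for 5 of 19 in Per1,2-/- (against 15.2% of all genes), namely Hsp90aa1, Hsph1, Dnajb4, Hspe1 and Hspa4l, and for 0 of 18 in Bmal1-/- (against 0.0699% of all genes, with 4 of the 18 at an unadjusted p under 0.05). Hspa8 averaged 889.1 ± 125.1 CPM in Per1,2-/-, 1010.0 ± 190.4 CPM in Bmal1-/- and 633.9 ± 289.0 CPM in WT (SD, n = 46, 46 and 48). Libraries ran from 603.7 to 1351 CPM in Per1,2-/-, from 608.9 to 1652 CPM in Bmal1-/- and from 327.6 to 1365 CPM in WT.

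Between libraries of the same time point, Cirbp and Hspa8 were related in Per1,2-/-, whereas Pearson's r did not pass in Bmal1-/- or WT. Over all libraries of a genotype the log2 values had a Pearson's r of -0.51 in Per1,2-/- (permutation p = 0.00057, adjusted p = 0.00342), -0.42 in Bmal1-/- (permutation p = 0.00354, adjusted p = 0.0159) and -0.62 in WT (permutation p = 1e-05, the smallest that the permutations can give, adjusted p = 0.00018). Spearman's rho was -0.51, -0.45 and -0.57 in the same order (adjusted p = 0.00264, 0.00936 and 0.00054). Since these permutations crossed time points, all p-values over all libraries also reflect the time courses of the genes. After the time point means were taken out, r was -0.63 in Per1,2-/- (permutation p = 0.00029, adjusted p = 0.00261, rho -0.58 with permutation p = 0.00044), so that at a given hour libraries with more Hspa8 tended to have less Cirbp. The summed hepatocyte markers moved with both genes there, with r of -0.57 with Cirbp and 0.37 with Hspa8 within time points, and their part in the relation was not tested. The other 5 marker lists had r between -0.14 and 0.18 with Cirbp in Per1,2-/-. The r of Cirbp with Hspa8 was -0.62 without the 2 libraries farthest from the median of Cirbp, and -0.66 without the 3 libraries that stood apart. In Bmal1-/- the r of Cirbp with Hspa8 within time points was -0.36 (permutation p = 0.0329, adjusted p = 0.0845), with a rho of -0.43 (adjusted p = 0.0344), and without the letter B it was -0.14 and without the letter C -0.58, and hepatocyte markers had r of -0.06 with Cirbp. In WT it was -0.14 (permutation p = 0.577, adjusted p = 0.746), and -0.45 without the letter C (adjusted p = 0.0222). In WT all 6 marker lists had a negative r with Cirbp, from -0.48 for lymphocyte to -0.15 for hepatocyte markers, and for Rbm3 the largest r was 0.43 with hepatocyte markers in WT and 0.38 with stellate markers in Per1,2-/-, all within time points and without a test. The difference in r between genotypes was not tested. Rbm3 was related to Hspa8 over all WT libraries (r = 0.38, permutation p = 0.0074, adjusted p = 0.0266, rho 0.36 with adjusted p = 0.0344, and r = 0.37 without the 2 libraries farthest from the median of Rbm3) but not detectably within time points (r = 0.05, permutation p = 0.782), and in Per1,2-/- and Bmal1-/- r over all libraries was 0.08 and 0.12 (permutation p = 0.58 and 0.441).

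**Figure D5:**
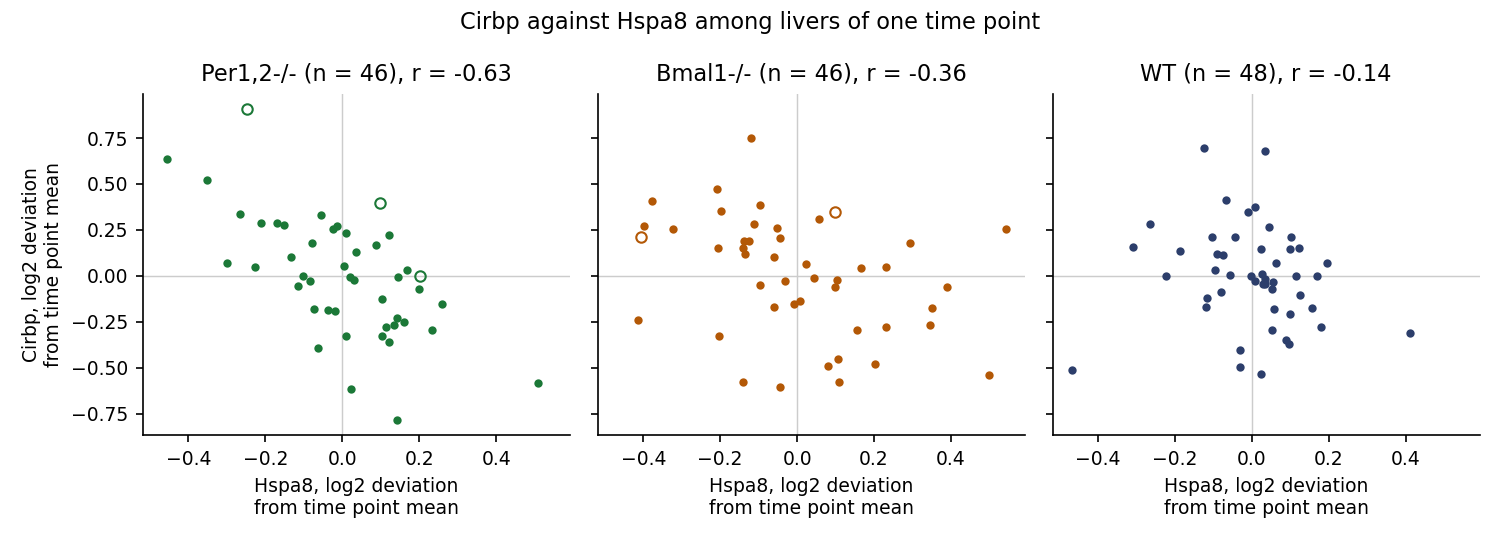
Cirbp (vertical axis) against Hspa8 (horizontal axis), each as the log2 deviation of a library from its time point mean, in Per1,2-/-, Bmal1-/- and WT livers. Points are libraries and open points the 5 libraries that stood apart; Pearson's r is -0.63 in Per1,2-/-, -0.36 in Bmal1-/- and -0.14 in WT.

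Within time points, most heat shock genes, with Hspa8 counted among them, leaned against Cirbp. In Per1,2-/- r was below 0 for 14 of the 19 tested heat shock genes, with a median of -0.27 and a range from -0.64 for Hspa1b, a stress-inducible HSP70, to 0.36 for Hspa4l. In Bmal1-/- it was below 0 for 18 of 18, with a median of -0.20, and in WT for 14 of 19, with a median of -0.17. Over all other genes tested the share below 0 was 50.1% in Per1,2-/-, 49.8% in Bmal1-/- and 49.7% in WT, with medians near 0. In the same order, 12.2%, 15.2% and 25.1% of genes lay below the median of the heat shock genes. These values share libraries and a depth scale, and are given as a description without a test. With Rbm3 r was below 0 for 15 of 19 in Per1,2-/-, 12 of 18 in Bmal1-/- and 13 of 19 in WT. The shares of all other genes below 0 with Rbm3 were 52.5%, 51.3% and 50.8%. The medians of -0.13, -0.07 and -0.08 were nearer to 0 than with Cirbp, and 29.4%, 36.2% and 39.1% of genes lay below them. Hspa8 itself had r of 0.19, 0.02 and 0.05 with Rbm3 in the same order.

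The genes whose WT time course was most like that of Cirbp, by Pearson's r over 12 time point means among 6946 genes with a mean of at least 20 normalized counts, were Ctdsp2, a phosphatase of the RNA polymerase II tail (r = 0.96), Nmnat3, an enzyme of NAD synthesis (0.96), Gabarapl1, an ATG8-family autophagy protein (0.96), Casp6, an executioner caspase (0.96), and Phka2, the liver subunit of phosphorylase kinase (0.95). Their fitted peaks lay between 6.86 and 7.86 hours and their folds between 1.63 and 2.52, below the fold of Cirbp. Over the 12 means in Per1,2-/- the same correlation was 0.90 for Casp6 and 0.75 for Gabarapl1 but 0.10 for Ctdsp2 and 0.01 for Phka2, and in Bmal1-/- it was 0.78 for Ctdsp2 and 0.82 for Phka2 but -0.35 for Casp6. The 5 most opposite genes were Ahsa1, an activator of HSP90 (-0.95), Fkbp4 (-0.95), Ftsj2 (-0.94), Ppp1r3b, a glycogen-targeting subunit of a protein phosphatase (-0.94), and Bag3, a co-chaperone of HSP70 (-0.94). Of these, 3 are on the heat shock list.

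For Rbm3 the likeness was weaker. The most like were Tigar, a regulator of glycolysis (0.85), Mief1, a mitochondrial fission factor (0.83), Gm561 (0.82), Farsb, a subunit of phenylalanyl-tRNA synthetase (0.81), and Stap2, a signalling adaptor (0.81). The most opposite were Psmd7, a subunit of the proteasome lid (-0.92), Smad1, a mediator of BMP signals (-0.88), Rab21, a GTPase of endosomes (-0.86), Cdc14b, a phosphatase (-0.84), and H6pd, an NADPH-producing enzyme of the endoplasmic reticulum (-0.82). None of these 10 is on the heat shock list, and their WT folds were between 1.12 and 1.58. With so many genes and 12 means, some high values of r arise for any course, and no test was made.

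Other RNA-binding proteins gave a mixed picture in WT. Of 13 relatives that share the RNA recognition motif, 10 were tested and 8 were called at 24 hours in WT (against 48.6% of all genes), 5 with a peak between 3 and 15 hours and 3 outside it, with a median fold of 1.41 over the tested genes against 1.25 over all genes. Rbmxl1 peaked at 20.4 ± 0.73 hours with a fold of 1.58 (SE, q = 0.00216), Msi2 at 4.14 ± 0.80 hours with 1.45 (q = 0.00709), Rbm4b, an RNA-binding protein of the RBM4 family, at 8.89 ± 0.92 hours with 1.35 (q = 0.008), and Rbm14 at 15.5 ± 0.93 hours with 1.42 (q = 0.0121). Of 19 SR proteins and CLK kinases, which regulate splicing and include known temperature sensors, 17 were tested and 7 were called, below the share of all genes, with a median fold of 1.23. Tra2a, a splicing activator, had a fold of 2.65 and a peak at 20.9 ± 0.44 hours (q = 6.17e-09), and Tra2b had 1.77 and 21.1 ± 0.63 hours (q = 4.12e-05). Srsf5, by contrast, peaked at 4.74 ± 0.65 hours with a fold of 1.42 (q = 7.9e-06), and Srsf2 at 19.1 ± 0.74 hours with 1.45 (q = 0.000931). In the knockouts 0 of these relatives and 0 of these splicing factors were called at 24 hours by JTK_CYCLE or by harmonic regression, and at an unadjusted p under 0.05 in JTK_CYCLE there was 1 of each in Per1,2-/- and 0 in Bmal1-/-. Their 24-hour terms differed from WT for 2 of 10 relatives and 5 of 17 splicing factors in Per1,2-/-, and for 1 of 10 and 2 of 15 in Bmal1-/-, counts near or below the 27.1% and 21.7% of all genes. At an unadjusted p under 0.05 in that edgeR test the counts were 7 of 10 and 6 of 17 in Per1,2-/-, and 3 of 10 and 2 of 15 in Bmal1-/-. The share of all genes at that bound is not given here.

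Of 5 transcripts reported as bound or controlled by CIRBP or RBM3, 3 were tested, Rtn3, Rpa2 and Txn1. In any genotype 0 of 3 were called by JTK_CYCLE or by harmonic regression, and 0 had an unadjusted p under 0.05 in JTK_CYCLE. Their median WT fold was 1.06. JTK_CYCLE called 48.6% of all genes in WT, 0.0864% in Per1,2-/- and 0.0116% in Bmal1-/-, so 0 calls was the common case in the knockouts. Of 19 core clock genes and PAR bZIP factors, 12 were tested, and in WT all 12 were called, against 0 of 12 in each knockout by JTK_CYCLE (1 in Per1,2-/- and 0 in Bmal1-/- at an unadjusted p under 0.05, and 1 and 0 called by harmonic regression). Of 4 named for the smallest q, which they shared with others, Per2, a repressor of the clock loop, had a WT fold of 38.8 and a peak at 15.8 ± 0.22 hours, and Cry1, its partner, had a fold of 10.4 and a peak at 21.0 ± 0.19 hours. Arntl, which encodes the activator BMAL1, peaked at 23.3 ± 0.16 hours and Nr1d1, which encodes the repressor REV-ERBα, at 7.45 ± 0.31 hours (SE), and the fitted trough of both was at or below 0, so that no fold can be given. The Cirbp peak, at 7.18 hours, lay close to that of Nr1d1. The 24-hour terms of the 12 clock genes differed from WT in each knockout, 12 of 12, against 27.1% of all genes in Per1,2-/- and 21.7% in Bmal1-/-. The list includes the targeted genes, Per1 and Per2 in Per1,2-/- and Arntl in Bmal1-/-, so for those genes the counts in part restate the genotype. Cirbp, with its WT fold of 3.23, was thus 1 of many genes whose called 24-hour rhythm was not detected in either knockout. The weak 24-hour call of Rbm3 in WT was likewise not made in either knockout. Its difference from WT in log2 peak-to-trough had a 95% interval of -0.55 to 0.68 in Per1,2-/- and of -0.37 to 0.70 in Bmal1-/-. These intervals are wide beside the WT value of 0.46, so whether the size of its rhythm changed cannot be told.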

How the data were processed

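Bulk MARS-seq libraries of mouse liver were analysed, 46 from Per1,2-/-, 46 from Bmal1-/- and 48 from WT mice. The authors demultiplexed reads with bcl2fastq, trimmed them with cutadapt, aligned them to mm10 with STAR and counted unique molecular identifiers over RefSeq genes with HTSeq. They deposited raw counts per gene for all genotypes and, for Per1,2-/- and WT, a normalized signal, the counts divided by DESeq2 size factors. The Bmal1-/- counts were normalized here with the same formula. Versions of these tools are not given in the sources used here. Size factors were set within each genotype, so normalized counts of the genotypes are not on the same scale. Levels across genotypes were tested only from raw counts with TMM factors. No column was left without a sample.

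A gene was tested if none of the libraries compared had fewer than 1 count of it. JTK_CYCLE, with exact null distributions and Bonferroni correction over phases, was run on normalized counts at a fixed period, with calls at q under 0.2. Folds, peaks and intervals came from harmonic regression. Change over time, rhythm differences and levels were tested with edgeR 4.0.16 quasi-likelihood F-tests on raw counts (R 4.3.3), with calls at an adjusted p under 0.05. DESeq2 1.42.0 was an alternative. Log2 values for trends, correlations and likeness used a pseudocount of 1. Correlations were tested with 100000 permutations, and within time points the permutations stayed within each time point. Over all libraries they crossed time points. The work in Python 3.11.15 used NumPy 2.4.6, SciPy 1.17.1 and pandas 2.3.3. All scripts were tested on simulated data with known changes.

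Totals ran from 1442278 to 5643470 counts, and counting alone gave a coefficient of variation of 10.3% to 13.2% for Cirbp and of 28.4% to 30.5% for Rbm3. No libraries of a time point agreed within sampling noise (lowest chi-square per degree of freedom 3.18). Alternatives were other tests, filters, scalings and thresholds, each day alone, a replicate block and each letter left out. The gene lists, the tests and both members were chosen with earlier results of these data known, though the members were taken by symbol and not by a measured value. From each list up to 4 called genes with the smallest q were named, and for each member the 5 genes most like it and the 5 most opposite. Other genes named, such as exceptions and extremes, were chosen after their values were seen.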

Additional observations from a re-analysis of the deposited data

Results flagged for a closer look

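In 5 of 64 groups of 4 libraries, the highest library of a member lay so far above the others that Dixon's test marked it at the 95% level. Chance marks about 1 in 20 such groups. Cirbp stood at 83.2 normalized counts in 1 Per1,2-/- library at CT0, where the others held 43.2 to 47.8. It stood at 149.9 in 1 WT library at CT4 (others 72.4 to 81.8) and at 143.3 in 1 WT library at CT32 (others 97.1 to 105). Both WT values fell at time points that were high in the other libraries too. Rbm3 stood at 38.0 in the Per1,2-/- library C at CT4 (others 7.75 to 11.6), which also stood apart in its whole profile, and at 16.3 in 1 Bmal1-/- library at CT8 (others 5.10 to 6.06).

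A difference between genotypes in the 24-hour terms, tested as such by edgeR, drew attention to Cirbp in Per1,2-/- against WT (adjusted p = 6.73e-07) and in Bmal1-/- against WT (adjusted p = 3.43e-08), and to Rbm3 in Per1,2-/- against WT (adjusted p = 0.0304). Of all genes, 27.1% passed in Per1,2-/- against WT and 21.7% in Bmal1-/- against WT.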

How the results depend on the processing

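Of 38 results, 31 kept their side of the threshold, or their size, under each alternative run, and 330 of 354 alternatives changed no call. A sign turned in 6 of these for 4 results that did not pass, among them the Rbm3 level in Bmal1-/- against WT (-0.076, and 0.011 without the letter A) and in Per1,2-/- against Bmal1-/- (-0.0039, and 0.026 without TMM, 0.053 without the letter A and 0.12 without the letter B), so these levels have no stable direction. The 24-hour call of Rbm3 in WT (q = 0.0987) was lost with calls at q under 0.05, with 12 time point means in place of libraries (q = 0.316), with a linear trend removed (q = 0.287), on the first day alone (q = 0.316), on the second day alone (q = 0.427) and without the letters A, B and C in turn (q up to 0.349), and was kept without the letter D (q = 0.111). The change of Cirbp over time in Per1,2-/- (adjusted p = 0.0409) was lost with the letter as a replicate block (adjusted p = 0.0631), without each letter in turn (0.0508 to 0.278), without the libraries that stood apart (0.386) and without the library C of CT8 (0.192). The rhythm difference of Rbm3 between Per1,2-/- and WT ranged from adjusted p 0.0170 to 0.163 without each letter and was 0.0664 without the libraries that stood apart. The level difference of Rbm3 between Per1,2-/- and WT ranged from a log2 fold change of -0.33 to 0.049 without each letter and was -0.24 without the libraries that stood apart, and passed without those libraries and without the letter C. Times of day at which a member differed between Per1,2-/- and WT numbered 4 over both days and 2 on the first day alone. The correlation of Cirbp with Hspa8 within time points ranged from -0.58 to -0.14 in Bmal1-/- and from -0.45 to 0.028 in WT without each letter, and passed in each without the letter C. For these changes the cause was not tested, other than that fewer libraries entered. Leaving out the libraries that stood apart or the library C of CT8, and all alternatives for the correlations and for the phase difference of the members (each letter left out, each day alone), were chosen after seeing the data. DESeq2 gave no adjusted p for Rbm3 in Per1,2-/- at a 16-hour period, nor in Bmal1-/- at a 12-hour period.

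Letters did not mark a shared animal, batch or day in the labels, and libraries of the same letter and time in Per1,2-/- and WT deviated together with a mean r of 0.024 and a lowest of -0.12. The replicate block changed no other call. Rbm3 had a mean of 10.8 to 12.4 counts per library, and the interval of its fold in WT ran from 1.10 to 1.92.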
